A study of Mus musculus with 7 samples.

Results

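The genes described here are 10 genes of the p53 pathway in mouse embryonic fibroblasts (MEFs): the gene of p53 itself, Trp53, and Mdm2, Ccng1, Trp53inp1, Phlda3, Cdkn1a, Btg2, Gadd45a, Bbc3 and Pmaip1. They were picked by gene symbol for their known place in the pathway, each stands on 1 row of the expression table, and together they are 10 of its 49382 rows. MEFs are primary cells grown from whole embryos, here from wild-type embryos of stages E13.5 to E14.4 and used at passages 3 to 7. RNA-seq had been made of 7 cultures, 1 untreated control and 1 for each of 6 stress conditions, so no value has a replicate and no difference could be tested against a spread between cultures. Of the conditions that ran for 10 h, 1 was in medium without glucose, 1 in medium without glutamine, 1 in a chamber at 0.1% oxygen (hypoxia) and 1 in 1 µM thapsigargin, which empties the calcium store of the endoplasmic reticulum (ER stress). The remaining conditions ran for 3 h, in 10 µM sodium arsenite (oxidative stress) or with 100 mM NaCl added (osmotic stress). All began after overnight culture, all 6 are set against the same control library, and the conditions differ in length as well as in kind.

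The p53 protein is a transcription factor that is made and destroyed continuously, and stress acts on it mostly by slowing its destruction rather than by raising the level of its mRNA. Once stabilised, p53 binds response elements near its target genes and induces one set that stops the cell cycle, another that favours apoptosis, and a further one, with the ubiquitin ligase gene Mdm2 in it, that shuts p53 down again. Many of these targets also have inducers other than p53, among them the stress factors ATF4 and CHOP for Gadd45a and Pmaip1 and growth factor signalling for Btg2, which is also known as an immediate early gene. In fibroblasts p53 is best known for holding cells in arrest after DNA damage and in senescence.

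The 10 genes did not move as a block in any of the 6 conditions. Expression is given in TPM, a gene's share of the transcripts of its library scaled to a total of 1000000, and a change is the log2(TPM + 1) of a condition minus that of the control, with 2-fold as the limit for calling a gene higher or lower. Of the 60 changes, 6 passed 2-fold, which is 10.0%, near the 9.53% of all changes of the 12829 kept genes over the same conditions. All 10 genes are protein-coding, and among protein-coding genes alone the shares past 2-fold were lower in every condition. In oxidative stress 1.79% of protein-coding genes were higher and 3.46% lower, against 3.94% and 4.86% of all kept genes. The 6 changes past 2-fold fell on 3 genes: Gadd45a was higher in glutamine depletion, ER stress and oxidative stress, Btg2 was higher in oxidative stress and lower in osmotic stress, and Bbc3 was lower in osmotic stress. The other 7 genes passed 2-fold in no condition. Cdkn1a, a classical p53 target, varied least of the 10.

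The cultures were fibroblastic by their markers, and a few facts of the libraries touch the values that follow. The summed level of 8 fibroblast markers was between 10157 and 12691 TPM in 6 libraries and 6109 TPM in ER stress, where Col3a1, a fibrillar collagen gene, changed by -2.07 and Lum, a proteoglycan gene, by -2.33. Of 25 markers of other cells that an embryo digest could hold, 20 stayed below 5 TPM in every library and 14 below 1 TPM, 1 of them at 0 in all. Summed over each type, macrophage markers ranged from 6.76 to 13.7 TPM, endothelial from 2.94 to 7.31, epithelial from 3.88 to 11.6, erythroid from 0 to 0.787, muscle from 13.7 to 36.2 and neural from 46.8 to 148. The neural maximum was in ER stress and came mostly from the tubulin gene Tubb3, which went from 26.0 in the control to 127 TPM. In bulk RNA, fewer cells of a type and less RNA per cell cannot be told apart, and the part of these markers in the ER stress values was not tested.

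**Figure D1:**
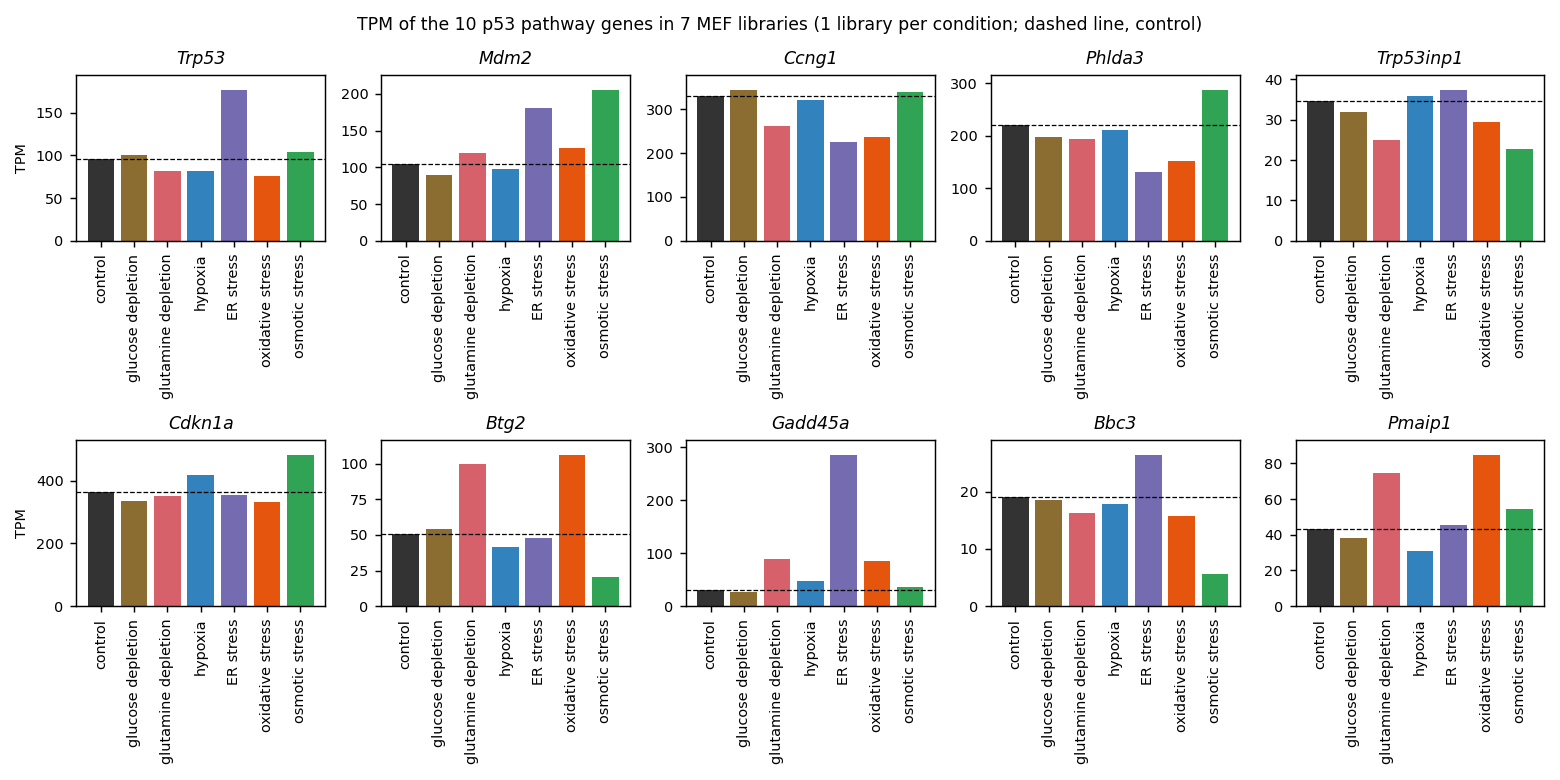
Expression of each of the 10 genes in the 7 libraries, 1 panel a gene, in TPM on a linear axis that starts at 0; each bar is 1 library and the dashed line is the control level. Gadd45a reaches 286 TPM in ER stress from 30.3 in the control, Bbc3 and Btg2 are lowest in osmotic stress, and the bars of Cdkn1a stay between 333 and 482 TPM.

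Trp53 encodes p53. Its mRNA was at 95.7 TPM in the control, 101 in glucose depletion, 82.1 in glutamine depletion, 82.2 in hypoxia, 177 in ER stress, 75.9 in oxidative stress and 104 in osmotic stress. ER stress stood apart with a change of 0.88, short of 2-fold, while the other 5 changes lay between -0.33 and 0.12. In ER stress 1378 of the 12829 genes kept for averaging 2 TPM or more over the libraries had a larger increase than Trp53. Trp53 lies on chromosome 11 from 69580359 to 69591873 on the plus strand (GRCm38).

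The promoters of 8 of the 10 genes were at hand in RefSeq (GRCm38.p6), as windows from 250 bases before the start site to 50 after it, 11 windows in all since Bbc3 and Cdkn1a have more than 1 start. The decamer of the p53 response element, searched on both strands by its consensus, occurred in at least 1 window of 5 of these 8 genes (Trp53, Mdm2, Ccng1, Cdkn1a and Gadd45a), which is 5 of the 11 windows, and in 8.36% of all 32851 mouse promoters of the same length. The windows of Phlda3, Btg2 and Bbc3 did not hold it. A match is a string of letters and not a measured binding site, and p53 elements of a gene can lie outside these 300 bases.

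Mdm2 encodes the ubiquitin ligase that marks p53 for destruction and is itself induced by p53. Its level was 105 TPM in the control, 89.96 in glucose depletion, 120 in glutamine depletion, 97.3 in hypoxia, 181 in ER stress, 126 in oxidative stress and 206 in osmotic stress. The highest values were those of osmotic stress, with a change of 0.96, and ER stress, with 0.78, and neither reached 2-fold. The osmotic stress value is just short of the limit: it became 1.09 once the median of all genes, -0.12 in that condition, was subtracted. Only 419 genes had a larger increase than Mdm2 in osmotic stress, against 1681 in ER stress. The 1 promoter window at hand for Mdm2 is shown because Mdm2 limits p53 and had the largest positive change of the 10 genes in osmotic stress. Its start site, 117710758, is the upstream end of the annotated gene, so any start within the gene is not covered. Whether p53 acts through this window was not tested. In the window chr10:117710709-117711008 on the minus strand, the capitals mark 1 p53 decamer, at -186 to -177 from the start site, and a CCAAT box read on the opposite strand.
Mdm2: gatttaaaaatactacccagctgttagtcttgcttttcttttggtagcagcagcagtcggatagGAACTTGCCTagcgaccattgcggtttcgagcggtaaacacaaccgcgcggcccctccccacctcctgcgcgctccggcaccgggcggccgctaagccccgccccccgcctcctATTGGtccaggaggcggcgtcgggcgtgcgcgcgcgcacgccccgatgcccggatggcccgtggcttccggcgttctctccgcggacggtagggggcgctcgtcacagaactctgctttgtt

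The remaining feedback genes lay nearer to the control. Ccng1, whose product cyclin G recruits a phosphatase to MDM2, was at 330 TPM in the control, 344 in glucose depletion, 262 in glutamine depletion, 320 in hypoxia, 225 in ER stress, 237 in oxidative stress and 339 in osmotic stress. Its values fell into a higher set of 4 libraries from 320 to 344 TPM, the control among them, and a lower set of 3, with changes of -0.33 in glutamine depletion, -0.48 in oxidative stress and -0.55 in ER stress. Trp53inp1, a nuclear protein that promotes the phosphorylation of p53 and also acts in autophagy, was at 34.6 TPM in the control, 32.0 in glucose depletion, 24.9 in glutamine depletion, 35.8 in hypoxia, 37.5 in ER stress, 29.4 in oxidative stress and 22.7 in osmotic stress. Its largest changes were -0.59 in osmotic stress and -0.46 in glutamine depletion. In GRCm38 Ccng1 lies on chromosome 11 from 40748552 to 40755311 (minus strand) and Trp53inp1 on chromosome 4 from 11156431 to 11174379 (plus strand).

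Phlda3, a pleckstrin homology domain protein that blocks the recruitment of the kinase AKT to membranes, was at 221 TPM in the control, 198 in glucose depletion, 194 in glutamine depletion, 212 in hypoxia, 130 in ER stress, 153 in oxidative stress and 288 in osmotic stress. It was lowest in ER stress, with a change of -0.76, and highest in osmotic stress, with 0.38. In ER stress Mdm2 and Phlda3, which are both p53 targets, thus lay on opposite sides of the control (0.78 and -0.76), and neither passed 2-fold. Phlda3 lies on chromosome 1 from 135766119 to 135769136 (plus strand), the chromosome that also holds Btg2.

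Cdkn1a encodes p21, the inhibitor of cyclin-dependent kinases through which p53 stops the cell cycle. It was at 364 TPM in the control, 335 in glucose depletion, 352 in glutamine depletion, 419 in hypoxia, 355 in ER stress, 333 in oxidative stress and 482 in osmotic stress. Osmotic stress was highest, with a change of 0.40, hypoxia followed with 0.20, and the other 4 conditions lay between -0.13 and -0.04. From its lowest to its highest library Cdkn1a spanned 0.53 on the log2 scale, and 17.9% of the genes that averaged 10 TPM or more spanned less. The gene has 2 annotated RefSeq starts 2790 bases apart. Its upstream promoter is shown because it is the only one of the 11 windows with more than 1 p53 decamer: they stand at -73 to -64 and -51 to -42, with 12 bases between them, in chr17:29090729-29091028 on the plus strand, and are in capitals. Only exact matches to the consensus were counted, so a near match, such as the tgacatgttc directly after the downstream decamer, is not marked. The window of the downstream start holds no exact match. The values are sums over transcripts, so the use of each start was not measured. Exons of the antisense gene AC167363.2, not analysed here, cover 273 of the 3553 exonic bases of Cdkn1a.
Cdkn1a, upstream start: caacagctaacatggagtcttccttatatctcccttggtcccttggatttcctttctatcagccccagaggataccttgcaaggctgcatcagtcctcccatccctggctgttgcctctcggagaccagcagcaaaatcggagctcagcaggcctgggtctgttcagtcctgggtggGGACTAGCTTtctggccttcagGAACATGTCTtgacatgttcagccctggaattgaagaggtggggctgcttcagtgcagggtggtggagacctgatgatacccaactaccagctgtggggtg

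Btg2, an antiproliferative protein of the BTG/TOB family that promotes the removal of poly(A) tails from mRNA, moved in both directions. It was at 50.8 TPM in the control, 53.8 in glucose depletion, 99.8 in glutamine depletion, 41.2 in hypoxia, 47.9 in ER stress, 106 in oxidative stress and 20.7 in osmotic stress. The value in oxidative stress was 1.05 above the control, just past 2-fold, that in glutamine depletion was 0.96 above it, just short of 2-fold, and osmotic stress was 1.26 below it. Oxidative and osmotic stress were both collected after 3 h, and Btg2 differed 5.13-fold between their TPM. The order of the other 4 libraries spans only 41.2 to 53.8 TPM. Its promoter is shown because Btg2 is the gene of the 10 that crossed 2-fold in both directions. In chr1:134079106-134079405 on the minus strand, the capitals mark a cyclic AMP response element, TGACGTCA, at -166 to -159, and 2 CCAAT boxes. This element stands in 1.79% of all promoters, and in no other window of the 8 genes.
Btg2: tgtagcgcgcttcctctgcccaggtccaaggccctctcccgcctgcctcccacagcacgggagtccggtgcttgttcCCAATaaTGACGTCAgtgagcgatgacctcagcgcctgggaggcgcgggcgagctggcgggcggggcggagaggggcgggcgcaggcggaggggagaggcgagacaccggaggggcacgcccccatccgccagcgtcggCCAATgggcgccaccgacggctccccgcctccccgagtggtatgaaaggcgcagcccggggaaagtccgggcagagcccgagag

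Gadd45a, a small acidic protein that activates stress kinase cascades and helps to stop the cell cycle at the entry to mitosis, had the largest changes of the 10 genes. Its level was 30.3 TPM in the control, 26.5 in glucose depletion, 88.5 in glutamine depletion, 47.7 in hypoxia, 286 in ER stress, 85.5 in oxidative stress and 37.0 in osmotic stress. It was higher by 3.20 in ER stress, a 9.17-fold increase, by 1.52 in glutamine depletion and by 1.47 in oxidative stress. The values in hypoxia (0.64), osmotic stress (0.28) and glucose depletion (-0.19) stayed within 2-fold. In ER stress 156 of 12829 genes rose more, in glutamine depletion 218 and in oxidative stress 312. Against the median of the other 5 stress libraries instead of the control, the glutamine depletion and oxidative stress values were 0.88 and 0.83, under 2-fold.

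The annotation places Gadd45a on chromosome 6 from 67035096 to 67037457, on the minus strand of GRCm38. The exons of the antisense gene E230016M11Rik cover 337 of its 1764 exonic bases, and reads from the strands were not told apart in the quantification, but that gene stood at 0.268 to 3.07 TPM, the highest of them in ER stress. The Gadd45a promoter is shown because this gene carries the largest increases. In chr6:67037358-67037657 on the minus strand, the capitals mark 1 p53 decamer at -40 to -31 and a CCAAT box at -86 to -82. The C/EBP-ATF element TGATGCAAT, in 0.192% of all promoters, and the AP-1 element TGANTCA, in 7.81%, occurred in no window of the 8 genes. CCAAT occurred in 6 of the 8 genes and in 37.4% of all promoters, and TATAAA in Trp53 only and in 13.6% of all.
Gadd45a: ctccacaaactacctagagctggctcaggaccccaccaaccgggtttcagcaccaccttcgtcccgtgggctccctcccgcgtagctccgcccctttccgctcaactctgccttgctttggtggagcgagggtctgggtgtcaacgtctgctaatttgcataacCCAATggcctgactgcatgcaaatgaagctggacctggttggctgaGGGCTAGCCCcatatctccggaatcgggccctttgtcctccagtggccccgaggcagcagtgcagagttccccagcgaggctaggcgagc

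The last pair of genes encode BH3-only proteins, which trigger apoptosis by binding the survival proteins of the BCL2 family. Bbc3, the gene of PUMA, was at 19.1 TPM in the control, 18.5 in glucose depletion, 16.3 in glutamine depletion, 17.9 in hypoxia, 26.4 in ER stress, 15.7 in oxidative stress and 5.54 in osmotic stress. It was lower by 1.62 in osmotic stress, where 409 of the 12829 genes fell further, and the other 5 changes lay between -0.27 and 0.45. It lies on chromosome 7 from 16308393 to 16318205 (plus strand), and at 5.54 TPM it was the lowest value of any of the 10 genes in any library. Pmaip1, the gene of NOXA, was at 43.3 TPM in the control, 38.2 in glucose depletion, 74.7 in glutamine depletion, 30.7 in hypoxia, 45.3 in ER stress, 84.7 in oxidative stress and 54.7 in osmotic stress. Its changes in oxidative stress (0.95) and after glutamine depletion (0.78) did not reach 2-fold, though the oxidative stress value became 1.11 once the median of all genes, -0.16 in that condition, was subtracted. In osmotic stress the BH3-only genes stood on opposite sides of the control, with Pmaip1 at 0.33 and Bbc3 at -1.62.

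**Figure D2:**
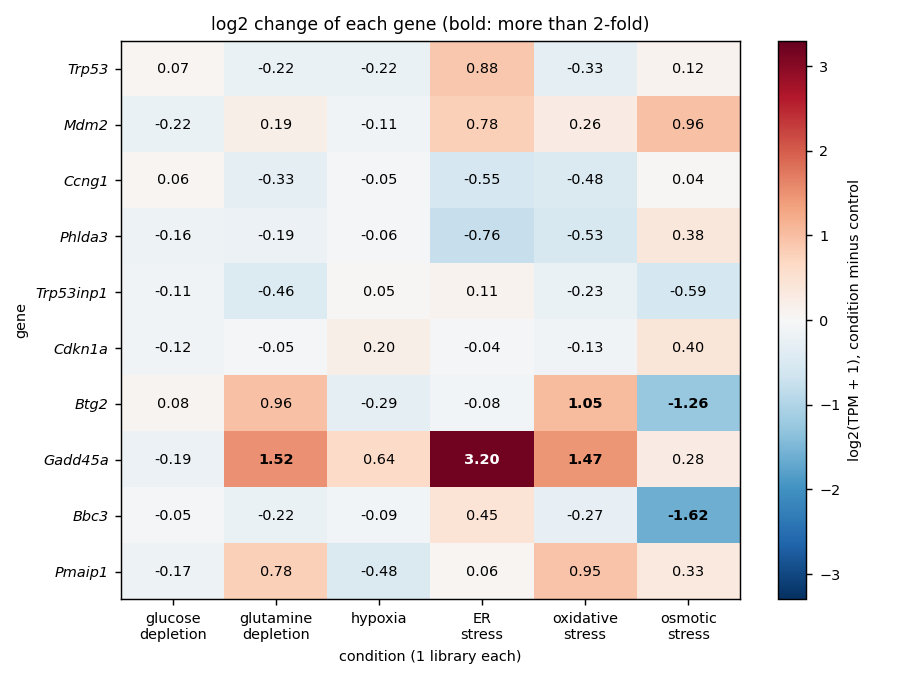
Change of each of the 10 genes (rows, ordered by role) in the 6 conditions (columns) as log2(TPM + 1) minus the control; colour and number give the change, and changes past 2-fold are in bold. The 6 bold values belong to Gadd45a, Btg2 and Bbc3, and the column of glucose depletion runs from -0.22 to 0.08.

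Read by condition, the 10 genes were few among many. In glucose depletion none of the 10 passed 2-fold in either direction, where 1.84% of all kept genes were higher and 2.41% lower. Hypoxia also had none, beside 3.59% higher and 2.63% lower. In glutamine depletion 1 of 10 was higher and none lower, against 3.21% and 3.22% of all kept genes. ER stress changed the most genes in all, 8.62% higher and 11.1% lower, and of the 10 only Gadd45a was higher and none was lower. In oxidative stress 2 of 10 were higher and none lower, against 3.94% and 4.86%. In osmotic stress none was higher and 2 of 10 were lower, against 3.06% and 8.77%. With 10 genes a share moves in steps of 10%.

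The median change of the 10 genes differed from that of all genes by -0.09 to 0.09 in 5 of the 6 conditions. It was -0.12 in glucose depletion, -0.12 in glutamine depletion, -0.08 in hypoxia, 0.09 in ER stress, -0.18 in oxidative stress and 0.20 in osmotic stress. The medians of all kept genes were -0.02, -0.09, -0.05, 0.00, -0.16 and -0.12 in the same order. Osmotic stress had the widest gap, with a median of the 10 genes 0.32 above that of all genes. There 7 of the 10 genes were above the control, against 4710 of the 12829 kept genes. The 3 below the control were Btg2, Bbc3 and Trp53inp1.

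**Figure D3:**
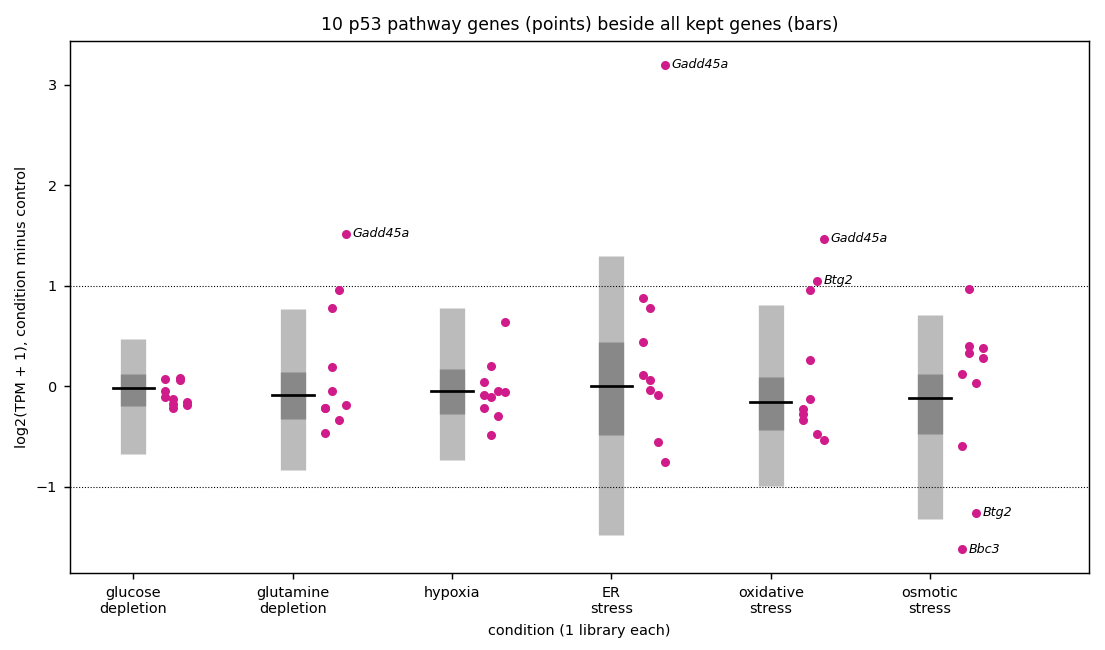
The 10 genes against all 12829 genes averaging 2 TPM or more, as log2 change against the control (vertical axis) in each of the 6 conditions (horizontal axis). Points are the 10 genes, the light bar runs from the 5th to the 95th percentile of all genes, the dark bar from the 25th to the 75th, and the black line is their median. Gadd45a stands above the light bar in glutamine depletion, ER stress and oxidative stress, while the median of the 10 genes is within 0.09 of that of all genes outside osmotic stress.

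The genes also differed in how far they moved over the 7 libraries. The span from the lowest to the highest library was 0.53 for Cdkn1a, 0.61 for Ccng1 and 0.70 for Trp53inp1 on the log2 scale. Phlda3 (1.14), Mdm2 (1.18), Trp53 (1.21) and Pmaip1 (1.43) lay between, and Bbc3 (2.07), Btg2 (2.30) and Gadd45a (3.38) spanned most. Among all genes that averaged 10 TPM or more, 65.5% spanned less than Phlda3, 91.2% less than Bbc3 and 97.2% less than Gadd45a. The most abundant pair of the 10 was also the steadiest, with Cdkn1a at 333 TPM or more and Ccng1 at 225 TPM or more in every library. Bbc3, the least abundant, was at 5.54 to 26.4 TPM, and its counting error cannot be computed without read counts.

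The rest of the pathway was followed with a list of 26 further p53 targets, all of them kept. Of their 156 changes, 17 passed 2-fold, which is 10.9%, against 9.53% over all kept genes. In glucose depletion Ddb2, a sensor of ultraviolet DNA damage, was lower (-1.06), and in glutamine depletion Pidd1, a death domain adaptor, and Ddb2 were lower (-1.55 and -1.30). Both are low genes, Pidd1 at 11.2 TPM and Ddb2 at 4.07 TPM in the control, the highest library of each. Over the 6 conditions Pidd1 lay between -1.55 and -0.70 and Ddb2 between -1.30 and -0.56. Against the median of the other 5 stress libraries, 0 of the 26 passed 2-fold in glucose or glutamine depletion. In hypoxia Ddit4, an inhibitor of the growth kinase mTORC1 that HIF also induces, was higher (1.77) and the kinase gene Plk3 was lower (-1.16).

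In ER stress 5 of the 26 passed 2-fold, or 19.2%, where 19.7% of all kept genes did. The kinase genes Plk2 (1.33) and Plk3 (1.16) were higher, and the death receptor gene Fas (-2.17), the sugar reductase gene Dcxr (-1.27) and the cell junction gene Perp (-1.19) were lower. Fas went from 23.2 TPM in the control to 4.40 TPM. In oxidative stress Plk3 was higher (1.48), and the phosphatase gene Ppm1d (-1.27), Pidd1 (-1.09) and the metabolic regulator gene Tigar (-1.01) were lower. In osmotic stress Ddit4 was higher (1.17), and Sesn2, a sestrin that restrains mTORC1 (-1.24), and Pidd1 (-1.20) were lower.

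In the other conditions the share of the 26 past 2-fold ran from 3.85% in glucose depletion, beside 4.25% of all kept genes, to 15.4% in oxidative stress, beside 8.80%. The median of the list was below 0 and below that of all genes in each condition: -0.18 in glucose depletion, -0.22 in glutamine depletion, -0.26 in hypoxia, -0.08 in ER stress, -0.36 in oxidative stress and -0.25 in osmotic stress. Bax, the pore-forming death effector and a classical p53 target, was steady like Cdkn1a, from 270 TPM in glucose depletion to 377 in ER stress. It was chosen after its values were seen, as the most abundant gene of the list. In osmotic stress, where Mdm2 (0.96) and Cdkn1a (0.40) were highest, 9 genes of the list were above the control and 17 below. Of all 12829 kept genes in that condition, 4710 were above the control and 7898 below.

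Of 22 genes that regulate p53, 20 were kept, and the p53 family genes Trp63 and Trp73 were below 1 TPM in every library. In glutamine depletion the p53 kinase gene Hipk2 was higher (1.06) and the checkpoint kinase gene Chek2 was lower (-1.38). In hypoxia Ppp1r13l, the gene of the p53 inhibitor iASPP, was higher (1.04), and in oxidative stress Trp53bp1, a DNA break repair gene, was lower (-1.21). None of the 20 passed 2-fold in glucose depletion, ER stress or osmotic stress, where 4.25%, 19.7% and 11.8% of all kept genes did. The shares of all kept genes were 6.43% in glutamine depletion, 6.22% in hypoxia and 8.80% in oxidative stress.

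**Figure D4:**
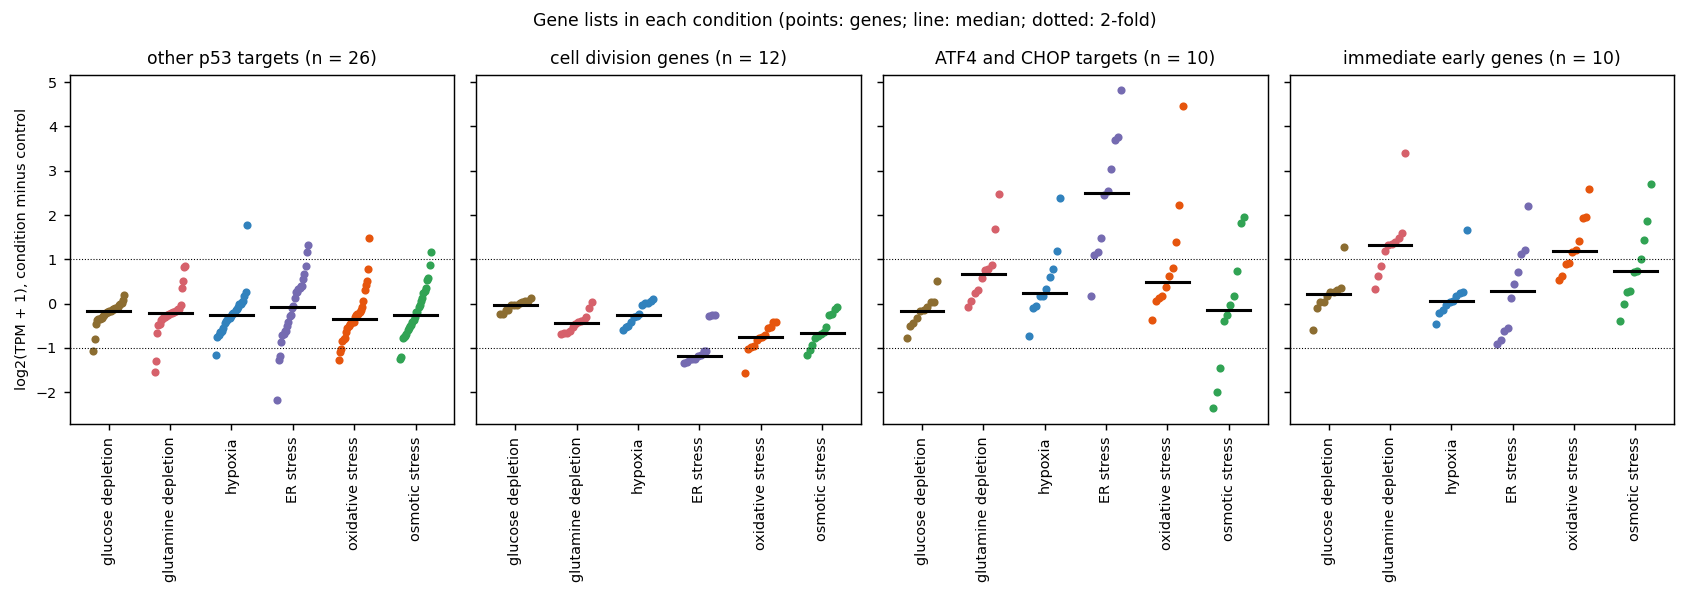
Change against the control (vertical axis, log2(TPM + 1)) in the 6 conditions for the kept genes of 4 lists (26 further p53 targets, 12 cell division genes, 10 ATF4 and CHOP targets, 10 immediate early genes), 1 panel a list. Each point is a gene, the black line is the list median and the dotted lines are at 2-fold. The medians of the further p53 targets lie between -0.36 and -0.08, while the ATF4 and CHOP targets have a median of 2.49 in ER stress and the immediate early genes one of 1.33 in glutamine depletion.

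Relatives of the 10 genes often went another way. Gadd45a was the only GADD45 gene to rise in ER stress: Gadd45b went from 59.1 to 35.7 TPM (-0.71), and Gadd45g fell from 169 to 80.2 TPM (-1.06). In glutamine depletion the changes were 0.66 for Gadd45b and -0.05 for Gadd45g, and in oxidative stress -0.07 and -0.05. In osmotic stress Gadd45g was lower by 1.51 and Gadd45b was at -0.14.

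Within the BTG/TOB family, Btg2 was lower in osmotic stress while Btg1 was higher, going from 25.9 to 92.8 TPM (1.80), and so was Tob2, from 19.4 to 41.8 TPM (1.07). Btg3 (0.35) and Tob1 (-0.05) stayed within 2-fold there. In ER stress Btg1 was also higher (1.04), while Btg2 was at -0.08. In oxidative stress, where Btg2 rose, the other 4 kept family genes lay between -0.61 for Tob1 and 0.77 for Btg1.

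Of the other CDK inhibitors of the p21 family, Cdkn1b lay between -0.68 in oxidative stress and 0.71 in hypoxia, and Cdkn1c passed 2-fold once, in ER stress (-1.07). The cyclin G gene Ccng2 was at 15.5 TPM in the control, higher in hypoxia at 51.0 TPM (1.66) and lower in ER stress at 6.47 TPM (-1.14), where Ccng1 was at -0.05 and -0.55. Phlda1 rose in glutamine depletion (1.97) and oxidative stress (2.63), where Phlda3 was at -0.19 and -0.53. Trp53inp2 stayed between -0.67 in ER stress and 0.15 in oxidative stress. The BH3-only genes Bcl2l11, Bad and Bid passed 2-fold in no condition, with Bid lowest at -0.97 in glutamine depletion, and in osmotic stress they were at 0.25, 0.31 and -0.50 beside the -1.62 of Bbc3. These genes are separate loci with their own sequences, but kallisto divides reads that match several transcripts by estimation.

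**Figure D5:**
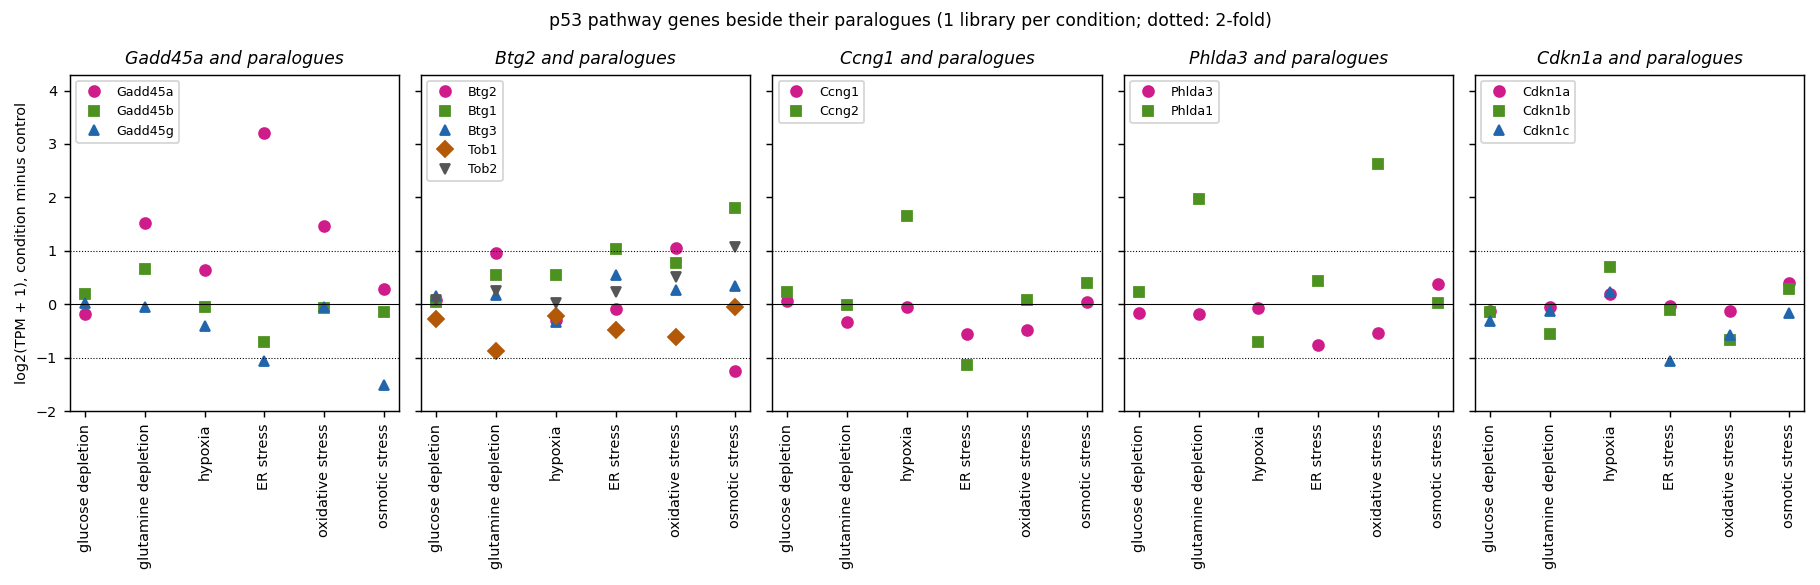
Change against the control (vertical axis, log2(TPM + 1)) of members of 5 families in the 6 conditions, 1 panel a family, with 1 marker shape and colour a gene and dotted lines at 2-fold. Gadd45a rises to 3.20 in ER stress where Gadd45b and Gadd45g are below 0, and in osmotic stress Btg2 is at -1.26 where Btg1 is at 1.80.

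Gene lists of other responses moved in the conditions in which Gadd45a, Btg2 and Pmaip1 were highest, and their part in those values was not tested. Of 10 targets of ATF4 and CHOP, 9 were higher in ER stress with a list median of 2.49, among them Atf3 (4.81), Ddit3, the gene of CHOP (3.77), and Ppp1r15a (3.70). In glutamine depletion 2 of these 10 were higher (median 0.67), in oxidative stress 3 (median 0.50), in hypoxia 2 (median 0.24) and in glucose depletion none (median -0.16). In osmotic stress 2 were higher and 3 lower, among them Chac1 at -2.36, with a median of -0.14. Gadd45a passed 2-fold in ER stress, glutamine depletion and oxidative stress, the 3 conditions with the highest medians of this list. Pmaip1 was at 0.06, 0.78 and 0.95 in the same conditions and order. The list was chosen with earlier results of these data known, and a link to either gene was not tested.

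Of 10 immediate early genes, 7 were higher in glutamine depletion (median 1.33) and 6 in oxidative stress (median 1.20), the conditions with the highest Btg2 and Pmaip1. In osmotic stress 4 of them were higher (median 0.73), where Btg2 was lower. In ER stress 3 were higher (median 0.28), and in hypoxia and glucose depletion 1 each. The genes with the largest increases were Egr2 in glutamine depletion (3.40) and in oxidative stress (2.60) and Ier3 in osmotic stress (2.69).

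Of 12 cell division genes, 9 were lower in ER stress (median -1.17), with Ccnb1 at -1.34 and Ccnb2 at -1.32. In oxidative stress 2 of the 12 were lower, Plk1 (-1.57) and Aurka (-1.03), with a median of -0.76, and in osmotic stress Aurka (-1.16) and Cdc25c (-1.05), with a median of -0.66. None passed 2-fold in glucose depletion, glutamine depletion or hypoxia. Cdkn1a was at -0.04 in ER stress, -0.13 in oxidative stress and 0.40, its highest value, in osmotic stress. All 12 cell division genes were below the control in each of these 3 conditions. Of all 12829 kept genes, 6221, 8463 and 7898 were below it in the same order.

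The genes whose 6 changes came nearest to those of Cdkn1a were the laminin gene Lamb2, Aff3 and the SUMO ligase gene Nsmce2, with root mean square differences of 0.0525, 0.0761 and 0.0771 on the log2 scale over the 6 conditions. Nearest to Mdm2 were the ubiquitin ligase gene Kcmf1 (0.121), Rbm15 (0.122) and the vesicle coat gene Sec24a (0.137). None of these 6 genes is among the p53 targets listed above.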

How the data were processed

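RNA-seq libraries of MEFs, 1 per condition and 7 in all, were assigned to conditions from their labels. The authors quantified reads with kallisto 0.43.1 at default settings against all cDNA of GRCm38 (Ensembl release 90), from a stranded kit whose strand this setting does not use, and deposited 1 TPM value a gene, the sum of its transcripts. TPM hold no read counts, so depth and counting error are unknown. Here 219 symbols on more than 1 row were summed, genes averaging 2 TPM or more were kept (12829 of 49135 symbols), and log2(TPM + 1) of the control was subtracted. With 1 library a condition there is no test, and past 2-fold, the limit the study used, stands for a call. Folds on this scale understate changes of low genes. Calculations used Python 3.11.15, numpy 2.4.6 and pandas 2.3.3 and were checked on simulated data.

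The 10 genes and all lists were chosen with earlier results of these data known. Named were all 10, their kept relatives, at most 3 genes past 2-fold with the largest change per list and condition, and the 3 genes nearest to Cdkn1a and to Mdm2. Perp and Plk3 in ER stress and Tigar in oxidative stress were added after their values were seen. Cop1 was matched by its identifier. Gene positions are from GENCODE M21 and promoters from RefSeq.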

Additional observations from a re-analysis of the deposited data

Results flagged for a closer look

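Btg2 moved in opposite directions in the conditions of 3 h: its log2 change was 1.05 under arsenite and -1.26 under added NaCl, from 106 and 20.7 TPM against 50.8 TPM in the control. With 1 library a condition the difference was not tested.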

How the results depend on the processing

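No paired analysis was possible because each condition has 1 library. Alternatives were pseudocounts of 0.1 and 5 TPM, no filter or an average of 10 TPM or more, subtraction of the kept genes' median (centring), removal of mitochondrially encoded genes, limits of 1.5-fold and 3-fold, the median of the other 5 stress libraries as reference, and the first row of a symbol. The 48 recomputed medians of the 10 genes moved by less than 1.5-fold, and 1 changed sign, that of glucose depletion, to 0.08 with the other stress libraries as reference. Leaving aside the moved limits, 457 of 480 recomputed single changes kept their sign and their side of 2-fold, 6 passed it, 3 fell short of it and 14 changed sign. The sign changes came from that reference (11, the largest in Gadd45a, from 0.28 to -1.19 in osmotic stress and from 0.64 to -0.83 in hypoxia) and from centring (3, with reported changes of at most 0.13 in size). The counts of the 10 genes past 2-fold became, with the other stress libraries as reference, 1 in glucose depletion, 2 in ER stress and 1 in oxidative stress. In osmotic stress Gadd45a also passed 2-fold with this reference, at -1.19. In glutamine depletion the count stayed at 1, but the gene was Btg2 (1.04), as Gadd45a fell short (0.88). Centring took 3 of the 60 changes past 2-fold and let none fall short. They were Btg2 in glutamine depletion, with 2 genes past 2-fold there, Pmaip1 in oxidative stress, with 3, and Mdm2 in osmotic stress. A pseudocount of 5 TPM gave 1 in oxidative stress, where Btg2 was at 0.99. At 1.5-fold there were 3 in glutamine depletion, 1 in hypoxia, 4 in ER stress, 3 in oxidative stress and 4 in osmotic stress. At 3-fold there were 0 in glutamine depletion, 0 in oxidative stress and 1 in osmotic stress. Counts of the 26 further targets at 1.5-fold were 2, 5, 7, 12, 9 and 9 (glucose depletion, glutamine depletion, hypoxia, ER, oxidative and osmotic stress), and at 3-fold 0, 0, 1, 1, 0 and 0. With a pseudocount of 5 TPM they were 0 in glucose depletion, 0 in glutamine depletion, 1 in hypoxia and 1 in oxidative stress. A filter at 10 TPM gave 0, 0 and 1 in glucose depletion, glutamine depletion and oxidative stress, the other stress reference 0 in each of these 3, and centring 2 in oxidative stress. Among protein-coding genes only, added after seeing the data, the shares past 2-fold were lower (higher and lower genes: 0.442% and 0.602% in glucose depletion, 1.89% and 1.86% in glutamine depletion, 1.93% and 1.02% in hypoxia, 7.10% and 9.80% in ER stress, 1.79% and 3.46% in oxidative stress, 1.41% and 7.35% in osmotic stress). Beyond the construction of each alternative, the cause of these shifts was not tested. Without counts or replicate cultures, no change here has an error.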
